A study of Mus musculus with 36 samples.

Results

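The 77 mitochondrial ribosomal protein genes described here are those of the deposited table whose symbol starts with Mrpl or Mrps followed by a digit, with the pseudogene entries left out, among 25626 genes listed. All 77 were abundant enough to test (10 or more normalized reads in 6 or more libraries), as were 16275 genes in all. By the usual assignment of the proteins, 26 belong to the small subunit of the mitochondrial ribosome, 50 to the large subunit and 1, Mrps36, to neither.

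RNA was sequenced from whole hearts of 36 mice in 6 groups of 6. Con-Sham, Con-TAC and Con-TAC-MQ were Control mice given vehicle after a sham operation, given vehicle after TAC (transverse aortic constriction, which loads the left ventricle with pressure), and given MitoQ, an antioxidant that accumulates in mitochondria, after TAC. Tg-Sham, Tg-TAC and Tg-TAC-MQ were the same 3 conditions in mice labelled cSirt4-Tg, a transgenic line named for Sirt4, a mitochondrial sirtuin. The series was made to find pathways through which mitochondrial reactive oxygen species could worsen heart disease in the transgenic mice. The sources used here do not give the age, sex or strain of the mice, the transgene's promoter, the time after TAC or the MitoQ dose. Libraries are called below by group and replicate number.

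Mitochondria translate their own few messenger RNAs, all of which encode core subunits of the respiratory chain and ATP synthase, on a dedicated ribosome. Its RNAs, mt-Rnr1 of the small and mt-Rnr2 of the large subunit, are transcribed from mitochondrial DNA, whereas every one of its proteins is encoded in the nucleus, made in the cytosol and imported. Some of these proteins have bacterial counterparts and others exist only in mitochondria. Heart muscle is rich in mitochondria, and inherited defects of several of these proteins, Mrpl44 among them, cause cardiomyopathy.

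The libraries held 14.8 to 60.0 M (mega) recovered reads. Sirt4 itself was not higher in the libraries labelled cSirt4-Tg: its normalized read count was 349 to 606 in Con-Sham and 314 to 444 in Tg-Sham, so the transgene could not be checked from the Sirt4 values. The 12 cardiomyocyte markers, averaged on the log2 scale, lay between 17.39 and 17.54 in Con-Sham, and 4 libraries stood apart in the groups after TAC. Con-TAC 6 had a cardiomyocyte mean of 16.70 and a fibroblast mean of 11.93, against 17.08 or more and 11.50 or less in the other 5 Con-TAC libraries. Tg-TAC 4 had the lowest cardiomyocyte mean of all, 16.25, together with an adipocyte mean of 10.48. Tg-TAC 6 had a cardiomyocyte mean of 17.49 and a fibroblast mean of 10.89, the first inside the Con-Sham range and the second between the ranges of Con-Sham (10.42 to 10.62) and Tg-Sham (11.02 to 11.60). Con-TAC-MQ 3 had means of 16.70 and 12.07, against 17.19 or more and 11.32 or less in the rest of its group. Each library name also holds a number that the labels do not explain. The 12 MitoQ libraries and Con-TAC 6 have 20 or 21, Tg-TAC 6 has 29, and it lies between 7 and 14 in every other library of Con-TAC and Tg-TAC, so MitoQ and whatever the number stands for can hardly be told apart. In both sham groups, replicates 1 to 3 have numbers between 7 and 14 and replicates 4 to 6 have 29 to 31. The number thus also differs between sham and TAC libraries. In whole hearts, fewer cells of a type and less RNA per cell cannot be told apart.

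The start regions of 68 of the 77 genes were found among RefSeq promoter windows of build GRCm38.p6, each 250 bases before to 50 bases after a start, 74 windows in all. They were searched on both strands for exact letters of motifs that bind 3 factors known to control nuclear genes of mitochondria: GCATGCG for NRF1, CCGGAAG for ETS factors such as GABP, and AAGATGG for YY1. The ETS and YY1 letters can share AAG where one runs into the other. The ETS letters were in the windows of 25 genes (36.8%). They were in those of 18.2% of the 11615 tested genes with windows and 9.93% of all 27025 genes with windows, tested or not. The YY1 letters were in 13 genes (19.1%, against 7.97% and 7.28%), and the NRF1 letters in 8 genes (11.8%, against 6.70% and 4.01%). At least 1 of the 3 was in 37 genes (54.4%, against 29.2% and 19.3%). A match describes the letters and is not a measured binding site. The NRF1 and YY1 letters were taken after longer forms had matched fewer genes, so these shares are descriptive and not a test. The gene sets were not matched for base composition. The 5 windows below are shown because their genes carry results described further on, and each is written in the direction of transcription with the motif letters in capitals. Mrpl39 (chr16:84735195-84735494, minus strand) holds the NRF1 letters on both strands, from 124 bases before the start, and Mrpl42 (chr10:95501900-95502199, minus strand) the YY1 letters 28 bases after it. Mrpl52 (chr14:54426659-54426958, plus strand) holds the ETS letters on the opposite strand 47 bases before and 3 bases after the start, and YY1 letters 91 bases before it. Mrpl33 (chr5:31613701-31614000, plus strand) holds ETS letters from 3 bases before and NRF1 letters on the opposite strand from 11 bases before the start, and Mrps9 (chr1:42850983-42851282, plus strand) none of the 3.
Mrpl39: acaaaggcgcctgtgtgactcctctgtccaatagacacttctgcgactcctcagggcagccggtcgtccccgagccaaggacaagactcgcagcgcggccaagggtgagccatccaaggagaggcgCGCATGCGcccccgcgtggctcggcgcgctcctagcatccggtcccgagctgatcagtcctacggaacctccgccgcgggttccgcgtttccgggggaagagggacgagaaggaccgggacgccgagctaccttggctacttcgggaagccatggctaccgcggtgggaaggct
Mrpl42: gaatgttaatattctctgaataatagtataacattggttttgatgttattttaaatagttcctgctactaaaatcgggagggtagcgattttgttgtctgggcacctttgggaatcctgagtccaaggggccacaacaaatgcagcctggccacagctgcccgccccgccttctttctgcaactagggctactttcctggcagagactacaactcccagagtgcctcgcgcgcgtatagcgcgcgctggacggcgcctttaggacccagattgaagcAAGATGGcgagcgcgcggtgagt
Mrpl52: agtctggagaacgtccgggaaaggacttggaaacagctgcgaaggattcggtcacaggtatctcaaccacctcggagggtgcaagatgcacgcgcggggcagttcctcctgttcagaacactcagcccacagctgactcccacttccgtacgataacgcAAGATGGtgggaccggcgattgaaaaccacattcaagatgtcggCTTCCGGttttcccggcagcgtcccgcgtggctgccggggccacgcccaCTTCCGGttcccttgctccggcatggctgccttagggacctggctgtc
Mrpl33: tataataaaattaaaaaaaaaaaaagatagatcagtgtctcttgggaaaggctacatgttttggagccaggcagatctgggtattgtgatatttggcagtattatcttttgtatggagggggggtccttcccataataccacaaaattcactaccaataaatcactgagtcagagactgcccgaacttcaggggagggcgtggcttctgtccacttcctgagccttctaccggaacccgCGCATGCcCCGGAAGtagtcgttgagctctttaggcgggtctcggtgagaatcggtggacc
Mrps9: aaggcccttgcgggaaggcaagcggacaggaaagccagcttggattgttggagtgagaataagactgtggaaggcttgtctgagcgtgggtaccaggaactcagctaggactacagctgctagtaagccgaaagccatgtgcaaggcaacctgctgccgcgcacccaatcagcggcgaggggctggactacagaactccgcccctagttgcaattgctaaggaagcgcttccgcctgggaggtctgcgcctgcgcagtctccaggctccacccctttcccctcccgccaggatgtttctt

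The genes lie on 17 chromosomes and are often packed against other genes. Of the 77, 18 (23.4%) start within 1000 bases of a tested gene that runs the other way, against 10.2% of all tested genes. Examples are Mrps34 beside Eme2, 29 bases apart, and Mrps12, a protein of the decoding centre, beside the mitochondrial seryl-tRNA synthetase gene Sars2, 172 bases apart. In all, 35 members (45.5%, against 42.8% of tested genes), Mrps34 and others of the 18 included, overlap a listed gene, which limits how surely reads can be assigned. Mrps6 overlaps Slc5a3 on the same strand, so reads of that pair cannot be told apart where they share sequence. Mrps34, Mrpl44, Mrpl49 and Mrpl33 overlap Mapk8ip3, Wdfy1, Syvn1 and Rbks on the opposite strand, and the sources used here do not say whether reads were counted by strand.

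Levels per length spanned a wide range. Per kb of principal transcript, averaged over the 36 libraries, Mrpl42, a mitochondria-specific large-subunit protein, was highest at 7503 normalized reads, followed by Mrps23 at 3086, Mrpl30 at 3056 and Mrps21 at 2624. The median member stood at 744 per kb, and the lowest were Mrpl17 at 143.5, Mrps25 at 153 and Mrpl19 at 184. These last 3 were assigned long transcripts, 7300, 6073 and 5000 bases, and Mrpl42 a short one of 666 bases, so the order depends on the transcript chosen. By normalized read count alone the highest means were 4997 for Mrpl42, 4111 for Mrps23 and 3441 for Mrpl12, the stalk protein L7/L12. The lowest were 151 for Mrps18c, 290 for Mrpl23 and 348 for Mrpl33, and no member fell below 73.8 in any library.

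**Figure D1:**
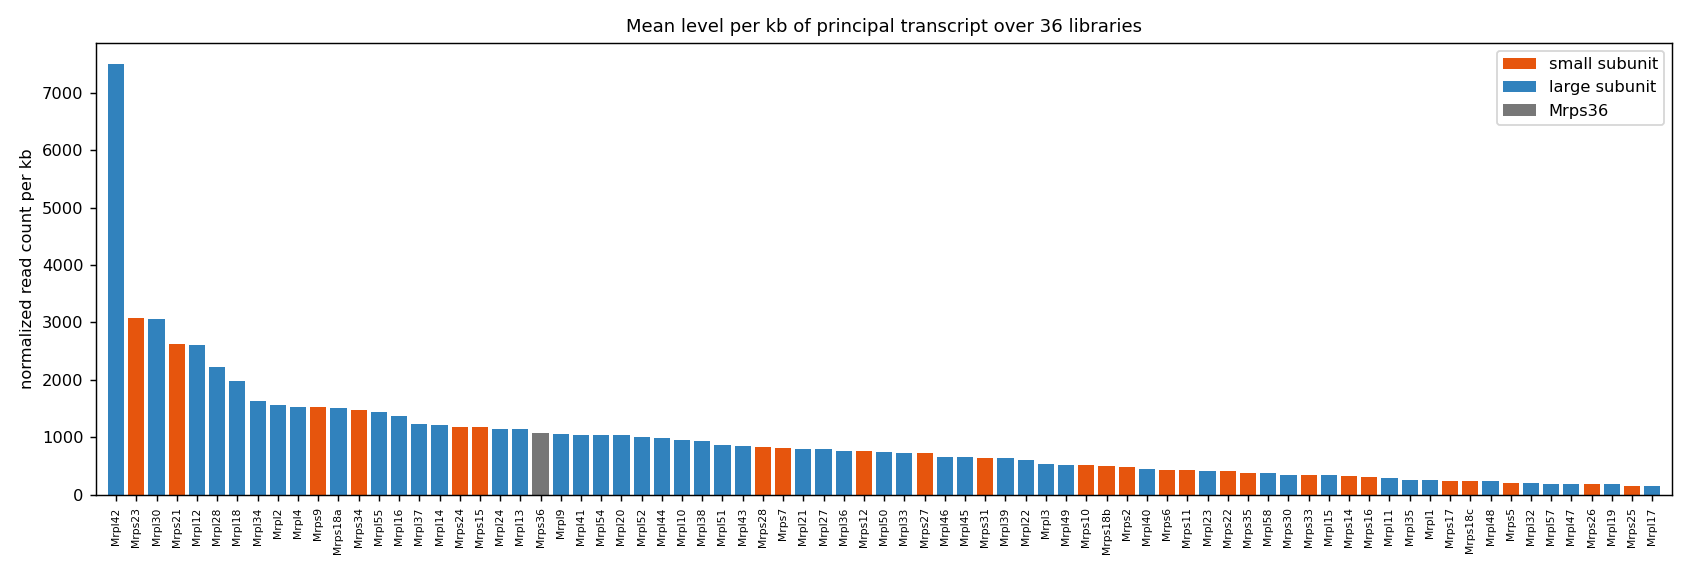
Mean normalized read count per kb of principal transcript for each of the 77 genes over 36 libraries, coloured by ribosomal subunit. Mrpl42 stands at 7503 and the median gene at 744, and both subunits are spread along the whole order.

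The spread between libraries of 1 group was of the size seen in the other ribosomal genes. The median within-group SD was 0.21 on the log2 scale for the members, 0.29 for all tested genes, 0.19 for 85 cytosolic ribosomal protein genes and 0.27 for 84 nuclear genes of the respiratory chain and ATP synthase. Summed over the 77 genes, the lowest, median and highest normalized read counts were 92755, 98204 and 115974 in Con-Sham, 70916, 108870 and 126641 in Con-TAC, and 77947, 92837 and 96591 in Con-TAC-MQ. In Tg-Sham they were 84723, 93989 and 110551, in Tg-TAC 64977, 93552 and 113308, and in Tg-TAC-MQ 82308, 87250 and 90301. Every pair of groups overlapped except Con-Sham and Tg-TAC-MQ, where the highest Tg-TAC-MQ sum, 90301, lay below the lowest Con-Sham sum, 92755. Both low extremes of the TAC groups were the libraries with few cardiomyocyte transcripts, Con-TAC 6 at 70916 and Tg-TAC 4 at 64977. The highest Tg-TAC sum, 113308, was that of Tg-TAC 6. How far cell composition bears on these sums was not tested.

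**Figure D2:**
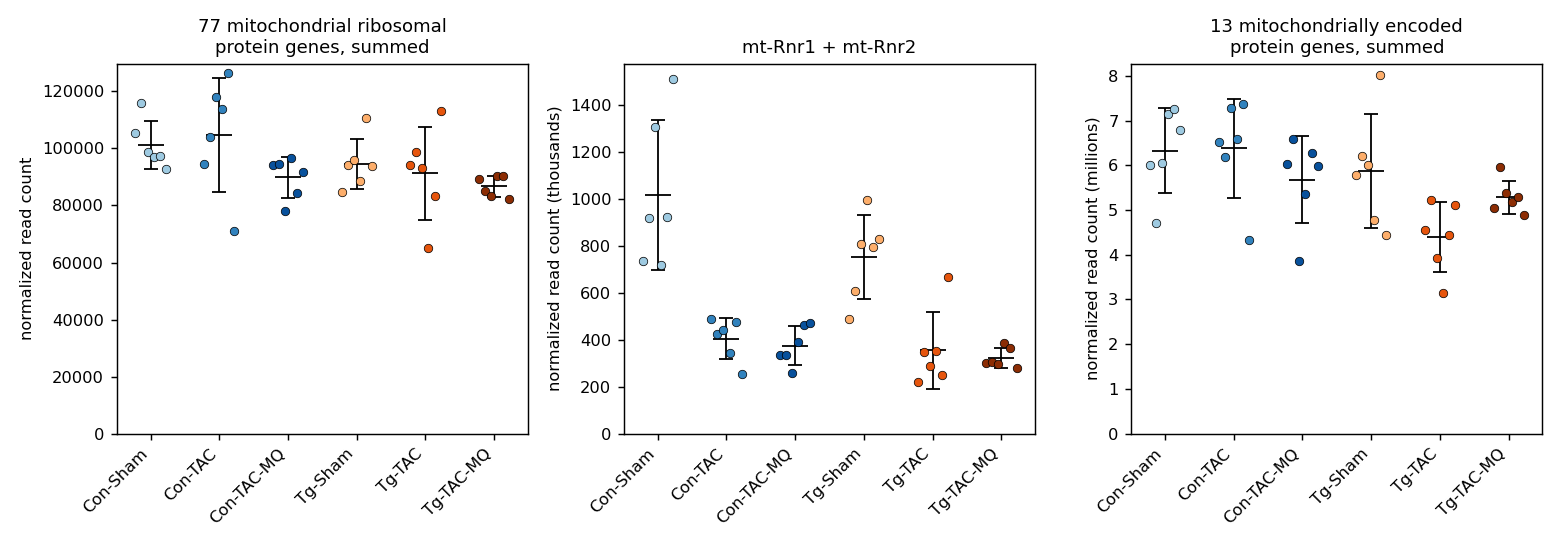
Summed normalized read counts in each library (points) with group mean and SD (bars), n = 6 per group: the 77 ribosomal protein genes, the 2 mitochondrial rRNAs and the 13 mitochondrially encoded protein genes; the axes of the last 2 are scaled as labelled. The ribosomal protein sums of Con-Sham and Con-TAC overlap, as do those of every other pair of groups except Con-Sham and Tg-TAC-MQ, and the rRNA sums of Con-TAC, at most 487440, lie below every Con-Sham value.

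Differences between groups were tested for each gene with limma on log2(value + 1), over all 36 libraries and all 16275 tested genes, and a gene was called at a Benjamini-Hochberg adjusted p under 0.05. Fold changes are on that scale, as log2 differences with their standard errors. Comparisons that use the same group, such as TAC in Control mice and MitoQ in Control mice, share its libraries and are not independent. The fit uses 1 spread per gene for all 6 groups, although their spreads differed. The SD of the members' mean log2 value was 0.30 in Con-TAC and 0.25 in Tg-TAC. It was 0.06 in Tg-TAC-MQ and between 0.10 and 0.13 in the other groups. Standard errors for Tg-TAC against Con-TAC can thus be too small.

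TAC in Control mice changed none of the 77 genes by this test. Of all tested genes, 2.65% were called higher and 2.65% lower in this comparison. Among the members 7 had an unadjusted p under 0.05, and edgeR and DESeq2 on the recovered reads also called 0. With the class of the name number added to the model, 0 members and 1.02% of all tested genes were called. In that fit Con-TAC 6, the only library without MitoQ in its class, carries no weight. Using only libraries named 7 to 14, these were 0 and 0.147%. The median log2 difference was 0.04 (all tested genes 0.01), with 43 members above and 34 below 0. Mrps34, a mitochondria-specific protein of the small subunit, had the smallest p. Its lowest, median and highest counts were 1044, 1198 and 1638 in Con-Sham and 1214, 1616 and 1902 in Con-TAC. The groups overlapped, 5 of 6 Con-TAC libraries lay above the Con-Sham mean, and the log2 difference was 0.33 (SE 0.11, adjusted p = 0.0776). Mrps23, another mitochondria-specific small-subunit protein, ran from 3397 to 4643 in Con-Sham (median 3610) and from 3759 to 5259 in Con-TAC (median 4733), a log2 difference of 0.27 (SE 0.10, adjusted p = 0.109).

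TAC in cSirt4-Tg mice raised 1 member and lowered 1, against 7.91% of all tested genes called higher and 8.77% lower, so the members' shares were below the background in both directions. The median was -0.06 (all tested genes -0.01), and 58 of 77 members were below 0. Mrps34 rose. Its lowest, median and highest counts were 1074, 1194 and 1268 in Tg-Sham and 1083, 1592 and 1819 in Tg-TAC. The groups overlapped through 1 low Tg-TAC library, Tg-TAC 4, 5 of 6 Tg-TAC libraries lay above the Tg-Sham mean, and the log2 difference was 0.37 (SE 0.11, adjusted p = 0.0240). Mrpl39, a mitochondria-specific protein of the large subunit whose start region holds the NRF1 letters printed above, fell. It ran from 1342 to 1923 in Tg-Sham (median 1586) and from 771 to 1667 in Tg-TAC (median 1105). Only Tg-TAC 6 reached the sham values, and the log2 difference was -0.51 (SE 0.15, adjusted p = 0.0155). In Control mice the same gene gave -0.34 (SE 0.15, adjusted p = 0.151), with Con-TAC 6 lowest at 801, and the test of the difference between genotypes gave an adjusted p of 0.926. The Mrps34 call was lost without Tg-Sham 1, Tg-TAC 2 or Tg-TAC 5 (highest adjusted p 0.0568), and the Mrpl39 call without Tg-TAC 4 (0.0579). The Mrps34 call was also lost with the name number's class added to the model, and with only libraries of the lowest class. Both calls were lost in the fit of Tg-Sham and Tg-TAC alone. Without Tg-TAC 6 the members called numbered 7, 2 higher and 5 lower, beside 13.4% of all tested genes called higher and 14.9% lower. Over the same comparison 6 of 12 cardiomyocyte markers were called lower and 7 of 12 fibroblast markers higher, and their part in the members' values was not tested.

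**Figure D3:**
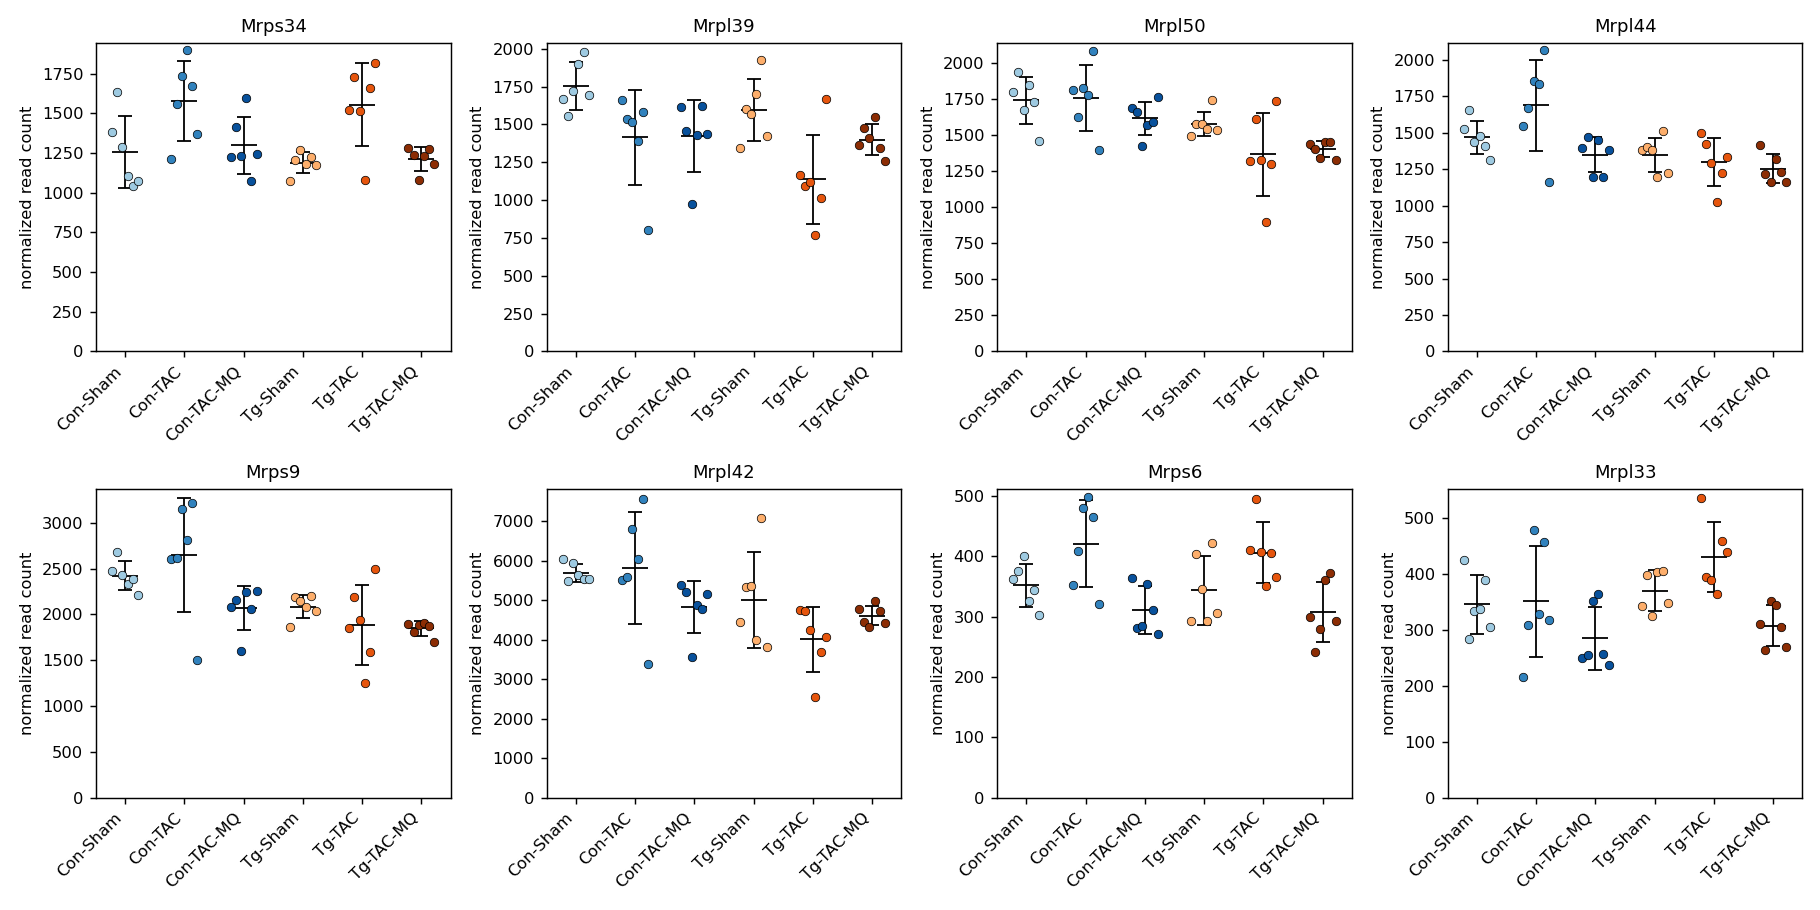
Normalized read count of 8 members in each library (points), with group mean and SD (bars), n = 6 per group, every axis from 0. Mrps34 is higher in most TAC libraries than in sham or MitoQ libraries, whereas Mrpl50, Mrpl44, Mrps9 and Mrpl42 sit lower in Tg-TAC than in Con-TAC, where the sixth Con-TAC library is the low point.

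Between genotypes after TAC, 5 members were lower in Tg-TAC and none higher. Of all tested genes, 3.29% were called lower and 3.19% higher. The median was -0.18 (all tested genes 0.00), 68 of 77 members were below 0 and 20 had an unadjusted p under 0.05. By subunit, 1 of 26 small-subunit and 4 of 50 large-subunit genes were called, with medians of -0.15 and -0.19. By ancestry, 1 of 46 genes with bacterial counterparts and 4 of 30 mitochondria-specific genes were called, with medians of -0.16 and -0.18.

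Mrpl50, a mitochondria-specific large-subunit protein, had lowest, median and highest counts of 1397, 1795 and 2078 in Con-TAC and 896, 1322 and 1733 in Tg-TAC. The log2 difference was -0.38 (SE 0.10, adjusted p = 0.0265). Mrpl44, whose protein has an RNase III-like fold, ran from 1162 to 2067 in Con-TAC (median 1753) and from 1024 to 1498 in Tg-TAC (median 1314), a difference of -0.37 (SE 0.10, adjusted p = 0.0292). In both genes all 6 Tg-TAC libraries lay below the Con-TAC mean and the groups overlapped, with Con-TAC 6 the lowest of its group. Mrps9, of the small subunit and with a bacterial counterpart, ran from 1497 to 3217 in Con-TAC (median 2709) and from 1249 to 2499 in Tg-TAC (median 1897), a difference of -0.48 (SE 0.13, adjusted p = 0.0308). Mrpl42 ran from 3398 to 7575 (median 5820) and from 2555 to 4745 (median 4165), a difference of -0.53 (SE 0.15, adjusted p = 0.0338). Mrpl49, a mitochondria-specific large-subunit protein, ran from 732 to 1233 (median 1098) and from 659 to 960 (median 853), a difference of -0.32 (SE 0.10, adjusted p = 0.0421). In these 3 as well all 6 Tg-TAC libraries lay below the Con-TAC mean while the groups overlapped. The neighbour of Mrpl49, Fau, which encodes a cytosolic ribosomal protein and starts 59 bases away, had a log2 difference of 0.36 in the other direction (SE 0.12, adjusted p = 0.051).

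How many members passed depended on single libraries. Without Con-TAC 6, 35 members were lower and none higher, while 8.96% of all tested genes were called lower. Without Tg-TAC 6 there were 17, beside 11.4% of all tested genes. Using only libraries whose name number is between 7 and 14, which leaves out both, 41 of 77 were lower with a median log2 difference of -0.36, while 12.3% of all tested genes were called lower. With that number's class added to the model 35 were lower, beside 10.3%. In that fit Con-TAC 6, the only library without MitoQ in its class, carries no weight, as when it is left out. The count was 0 without Con-TAC 3, Con-TAC 5, Tg-TAC 4 or Tg-TAC 5. It was also 0 in the fit of these 2 groups alone, which uses only their own spread. There 0.00614% of all tested genes were called, and adjusted p-values were 0.251 to 0.284 for the 5 genes. The direction of each of the 5 genes was the same in all these fits. Over the comparison the cardiomyocyte markers were lower in median by 0.44 on the log2 scale with 1 of 12 called, 4 of 12 fibroblast and 7 of 12 macrophage markers were called higher, and their part was not tested.

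The comparison of genotypes after sham surgery called no member, beside 0.786% of all tested genes called higher and 0.086% lower. The median was -0.09 (all tested genes 0.00), 62 of 77 members were below 0 and 1 had an unadjusted p under 0.05; edgeR and DESeq2 also called 0. That gene was Mrps36, which despite its name is a subunit of the 2-oxoglutarate dehydrogenase complex. It ran from 797 to 964 in Con-Sham (median 895) and from 579 to 1053 in Tg-Sham (median 690), a log2 difference of -0.33 (SE 0.15, adjusted p = 0.358). Mrps11, of the small subunit, gave -0.20 (SE 0.11, adjusted p = 0.459). In this comparison 7 of 12 macrophage markers were called higher.

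**Figure D4:**
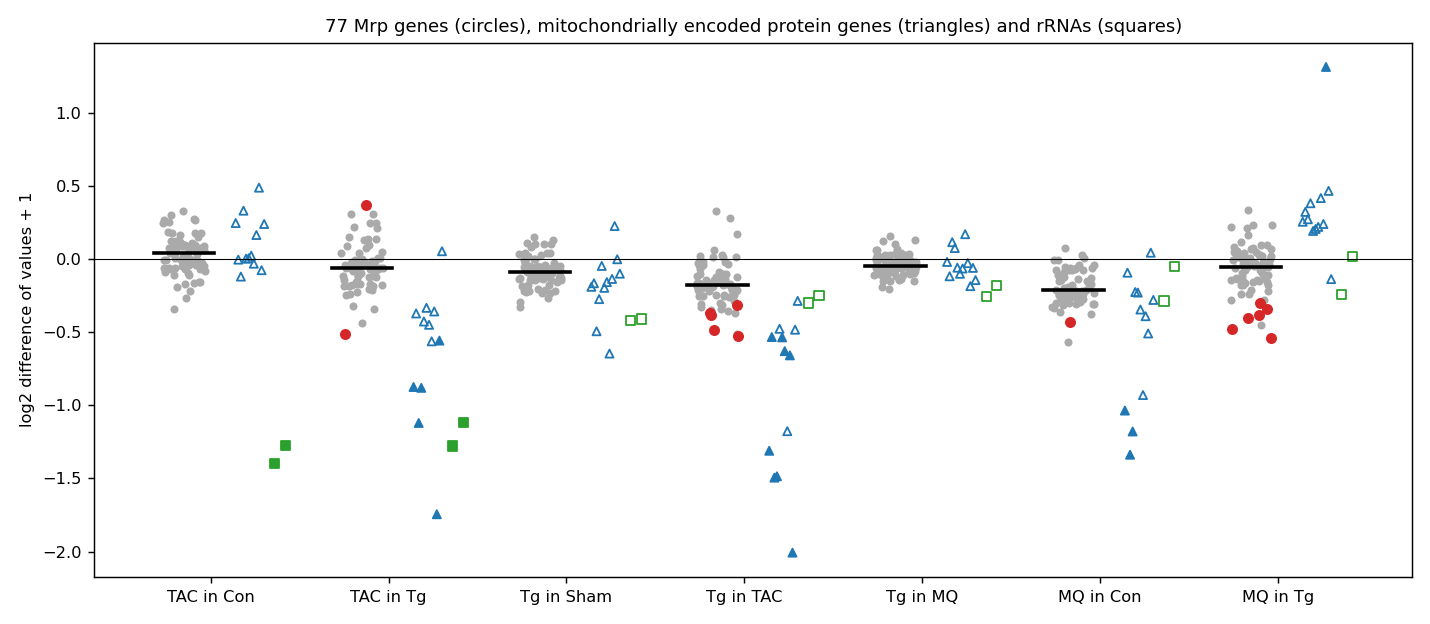
Log2 difference of each gene in the 7 comparisons of 2 groups, where TAC in Con is Con-TAC minus Con-Sham, Tg in TAC is Tg-TAC minus Con-TAC, MQ in Tg is Tg-TAC-MQ minus Tg-TAC, and the rest follow the same pattern. Circles are the 77 ribosomal protein genes (red where called, bar at the median), triangles the mitochondrially encoded protein genes and squares the 2 rRNAs (filled where called). The circles stay between -0.57 and 0.37, the rRNAs drop to -1.40 after TAC, and the triangles reach -2.01 in Tg-TAC against Con-TAC. That lowest triangle is mt-Nd4l, with means of only 2.13 normalized reads in Tg-TAC and 9.68 in Con-TAC.

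MitoQ after TAC in Control mice lowered 1 member and raised none, beside 1.31% of all tested genes called lower and 1.92% higher. As deposited, the values lay below 0 in most members: the median was -0.21 (all tested genes 0.01), 74 of 77 members were below 0 and 22 had an unadjusted p under 0.05. Mrps6, of the small subunit and with a bacterial counterpart, was the called gene. Its lowest, median and highest counts were 321, 437 and 499 in Con-TAC and 271, 298 and 364 in Con-TAC-MQ, with a log2 difference of -0.43 (SE 0.12, adjusted p = 0.0422). All 6 Con-TAC-MQ libraries lay below the Con-TAC mean, and the groups overlapped. The call was lost without any of 8 of the 12 libraries, with adjusted p-values over the 12 fits from 0.00748 to 0.154. Without Con-TAC 6, 29 members were lower, beside 4.61% of all tested genes. Con-TAC 6 is also the single Con-TAC library whose name number matches the MitoQ libraries. With the name number's class added to the model, the members' median turned to 0.33 and Mrps6 was not called (log2 difference -0.05, adjusted p = 0.931). Mrpl39 alone was called there, higher, beside 0.387% of all tested genes called higher, and that fit's MitoQ difference rests on Con-TAC 6, the only library without MitoQ in its class.

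MitoQ after TAC in cSirt4-Tg mice lowered 6 members and raised none, while 7.44% of all tested genes were called lower and 9.89% higher. The 6 are 7.79% of the members, a share near the background in that direction. The median was -0.05 (all tested genes 0.00). Of the 6, 3 belong to each subunit. Mrpl52, a mitochondria-specific large-subunit protein with ETS letters on both sides of its start, had lowest, median and highest counts of 459, 524 and 606 in Tg-TAC and 296, 381 and 423 in Tg-TAC-MQ. These ranges did not overlap, and the log2 difference was -0.54 (SE 0.16, adjusted p = 0.0165). Mrpl33, a large-subunit protein with a bacterial counterpart, ran from 365 to 536 in Tg-TAC (median 417) and from 264 to 351 in Tg-TAC-MQ (median 308), again without overlap, a difference of -0.48 (SE 0.14, adjusted p = 0.0198). Mrps6 ran from 350 to 495 (median 406) and from 242 to 372 (median 297), a difference of -0.40 (SE 0.12, adjusted p = 0.0190). Its neighbour Slc5a3, on the same strand, gave -0.03 (SE 0.32, adjusted p = 0.963).

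Mrps34, which rose after TAC in the same genotype, ran from 1083 to 1819 in Tg-TAC (median 1592) and from 1080 to 1283 in Tg-TAC-MQ (median 1234). Its log2 difference was -0.34 (SE 0.11, adjusted p = 0.0361), and the groups overlapped. The 2 comparisons share the Tg-TAC libraries. Mapk8ip3, which overlaps Mrps34 on the other strand, gave 0.29 (SE 0.09, adjusted p = 0.018). Mrps10, a small-subunit protein with a bacterial counterpart, ran from 508 to 607 in Tg-TAC and from 437 to 501 in Tg-TAC-MQ, without overlap, a difference of -0.30 (SE 0.10, adjusted p = 0.0365). Mrpl54, a mitochondria-specific large-subunit protein, ran from 543 to 828 and from 466 to 614, a difference of -0.38 (SE 0.13, adjusted p = 0.0368). Mrpl52 stayed called whichever library was left out (highest adjusted p 0.0472). The calls of Mrps10, Mrpl54 and Mrps34 were each lost without any of 8 of the 12 libraries, with adjusted p-values up to 0.0736, 0.0935 and 0.082, that of Mrps6 without Tg-TAC 2 or Tg-TAC-MQ 2 (up to 0.0625), and that of Mrpl33 without Tg-TAC 1 or Tg-TAC-MQ 2 (up to 0.0594). With the name number's class added to the model, none of these was called lower and 34 members were called higher (median 0.61), beside 7.82% of all tested genes. That fit rests on Con-TAC 6 in the same way. Over the comparison as deposited, 3 of 12 cardiomyocyte markers were called higher and 5 of 12 fibroblast markers lower, and the share of reads on the ribosomal RNA gene Rn18s-rs5 was 2.38 to 11.8% in Tg-TAC and 0.59 to 1.33% in Tg-TAC-MQ; their part was not tested.

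Between genotypes under MitoQ no member was called, beside 0.0492% of all tested genes called higher and 0.0246% lower, no member had an unadjusted p under 0.05, and edgeR and DESeq2 also called 0. The median was -0.05 (all tested genes -0.01). Mrpl50 and Mrps22, a mitochondria-specific small-subunit protein, had the smallest p-values. Mrps22 ran from 442 to 600 in Con-TAC-MQ and from 386 to 460 in Tg-TAC-MQ, with a log2 difference of -0.19 (SE 0.13, adjusted p = 1.00). The tests of whether TAC or MitoQ acted differently in the 2 genotypes called 0% of all tested genes in either direction and none of the members; edgeR and DESeq2 called none of the members either. For TAC, 0 members had an unadjusted p under 0.05 and the smallest belonged to Mrpl44 (-0.24, SE 0.14, adjusted p = 0.853). For MitoQ, 2 had one: Mrpl49 (0.34, SE 0.14) and Mrpl42 (0.47, SE 0.21), both with an adjusted p of 0.574.

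Several members have roles of their own. Mrps12, of the decoding centre, had group medians between 587 in Con-TAC-MQ and 793 in Con-TAC. Mrpl12, which also binds the mitochondrial RNA polymerase, had group medians between 3057 in Tg-TAC-MQ and 4118 in Con-TAC. Mrpl58, a peptidyl-tRNA hydrolase that releases stalled chains, had medians between 831 and 1104 in the same groups. Mrps30 and Mrps18a, which sit in the large subunit despite their names, had medians between 1062 and 1239 and between 1224 and 1592. Of the homologous small-subunit proteins Mrps18b and Mrps18c, the second ran from 144 to 210 in Tg-TAC and from 105 to 137 in Tg-TAC-MQ without overlap, a log2 difference of -0.45 (SE 0.19, adjusted p = 0.0978), while Mrps18b had medians between 472 and 592. None of these 7 genes was called in any of the 9 comparisons.

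The 2 RNAs of the mitochondrial ribosome fell after TAC in both genotypes. Together mt-Rnr1 and mt-Rnr2 had lowest, median and highest sums of 715983, 919707 and 1509480 normalized reads in Con-Sham and 255672, 432871 and 487440 in Con-TAC, which did not overlap. In Tg-Sham the sums were 489101, 801349 and 996374, and in Tg-TAC 218124, 319086 and 668063, with Tg-TAC 6 at the upper end and the other 5 libraries at 350105 or less. The log2 difference of mt-Rnr1 was -1.40 after TAC in Control mice (adjusted p = 0.0011) and -1.28 in cSirt4-Tg mice (adjusted p = 0.0010), and that of mt-Rnr2 was -1.28 and -1.12 (adjusted p = 0.0011 and 0.0013). The share of Rn18s-rs5, a cytosolic rRNA gene, varied as well. It was 3.50 to 11.01% of reads in Con-Sham. In Con-TAC it was 1.55 to 2.27%, below every sham library, except in Con-TAC 2 at 9.22%. It was 3.37 to 9.69% in Tg-Sham and 2.38 to 11.8% in Tg-TAC. How much rRNA removal bears on the mitochondrial or the cytosolic rRNA was not tested.

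The mitochondrially encoded protein genes were compared as a further reference. Of 13 listed, 12 were tested, the exception being mt-Atp8, and 5 carried few reads: mt-Nd4l, mt-Nd3, mt-Atp6, mt-Co3 and mt-Co2, with group means of at most 9.68, 12.2, 172, 318 and 579. The abundant mt-Co1 had a mean of 2352460 in Con-Sham. Why these 5 had so few reads, and whether their values stand for transcript levels, was not tested. The medians of the 12 below include them. After TAC in Control mice 2.65% of all tested genes were called in each direction. The share called lower was 8.77% after TAC in cSirt4-Tg mice and 3.29% in Tg-TAC against Con-TAC. With MitoQ, 1.31% were called lower in Control mice and 9.89% higher in cSirt4-Tg mice. These MitoQ calls, too, can hardly be told apart from the name number. After TAC none was called in Control mice (median 0.01) and 5 were lower in cSirt4-Tg mice (median -0.50): mt-Atp6, mt-Co2, mt-Co3 and mt-Nd4l among the 5 with few reads, and the abundant mt-Nd5. In Tg-TAC against Con-TAC 8 of 12 were lower, with a median of -0.64: the same 4, and the abundant mt-Co1, mt-Nd1, mt-Nd2 and mt-Nd4. Of these, mt-Co1 had lowest, median and highest counts of 1696700, 2403340 and 2749720 in Con-TAC and 1140170, 1625550 and 2078890 in Tg-TAC, a log2 difference of -0.53 (adjusted p = 0.0318). MitoQ in Control mice lowered 3 of 12, all with few reads (median of the 12 -0.37): mt-Co2 by a log2 difference of -1.34, mt-Co3 of -1.18 and mt-Atp6 of -1.04 (adjusted p = 0.0039, 0.0039 and 0.0132). None of the abundant ones was called there. In cSirt4-Tg mice MitoQ raised 1, mt-Nd4l (median of the 12 0.26).

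Set against these genes, the member sum was 1.87 to 2.38% of the summed mitochondrially encoded protein genes in Tg-TAC (2.08% ± 0.19, SD, n = 6). The means of the other groups lay between 1.62 and 1.66%. Every Tg-TAC library exceeded every library of Con-TAC (1.45 to 1.73%) and of Tg-TAC-MQ (1.43 to 1.78%), but single libraries reached 2.46% in Con-Sham, 2.12% in Tg-Sham and 2.02% in Con-TAC-MQ. Because both the numerator and the denominator are shares of the same library, the ratio shows unequal change of the 2 gene groups and not which of them changed.

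Another 5 proteins of the mitochondrial ribosome carry other names: Dap3, Ptcd3, Chchd1, Aurkaip1 and Gadd45gip1. Only Ptcd3, a small-subunit protein that also binds RNA, was called. It ran from 3265 to 3807 in Tg-Sham, from 2853 to 4480 in Con-TAC and from 1741 to 4044 in Tg-TAC. Its log2 difference was -0.35 after TAC in cSirt4-Tg mice (SE 0.12, adjusted p = 0.0349) and -0.45 in Tg-TAC against Con-TAC (SE 0.12, adjusted p = 0.0256).

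Other steps of mitochondrial gene expression were read from lists of genes. Of all tested genes, 7.91% were called higher and 8.77% lower after TAC in cSirt4-Tg mice, and 3.19% and 3.29% in Tg-TAC against Con-TAC. With MitoQ these shares were 9.89% and 7.44% in cSirt4-Tg mice and 1.92% and 1.31% in Control mice. The MitoQ calls of these lists can likewise hardly be told apart from the name number. Of 27 genes for assembly and rRNA modification only Mpv17l2, an assembly factor of the mitochondrial ribosome, was called: higher after TAC in cSirt4-Tg mice (0.43), higher in Tg-TAC than in Con-TAC (0.45) and lower with MitoQ in cSirt4-Tg mice (-0.46, adjusted p = 0.0061). Of 16 translation factors only Taco1, the translational activator of mt-Co1, was called, 0.46 higher with MitoQ in cSirt4-Tg mice. Among 22 genes for aminoacyl-tRNA synthesis 4 were lower and 1 higher after TAC in cSirt4-Tg mice, and 2 lower in Tg-TAC than in Con-TAC, Wars2 by a log2 difference of -0.49 and Mars2 by -0.28. With MitoQ in cSirt4-Tg mice 3 of them were higher (Mars2, Wars2 and Iars2) and 2 lower. One of these 2, Lars2, gave -2.13 (adjusted p = 0.0003), beside the Rn18s-rs5 shares given above, whose part was not tested. Of 28 genes that maintain mitochondrial DNA and RNA, 2 were lower after TAC in cSirt4-Tg mice, one of them the mRNA-stabilizing Lrpprc (-0.55, adjusted p = 0.0164). In Tg-TAC against Con-TAC 3 of them were lower, led by the transcription factor Tfb2m (-0.36, adjusted p = 0.0130). MitoQ in cSirt4-Tg mice raised 5 of them, Lrpprc (0.50, adjusted p = 0.0249), the mitochondrial DNA polymerase Polg (0.21), the helicase Twnk (0.39), Fastkd1 (0.41) and Fastkd3 (0.40), and lowered Fastkd5 (-0.47). MitoQ in Control mice lowered 1, Slirp (-0.45, adjusted p = 0.0415), whose protein binds Lrpprc.

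Of 13 nuclear regulators of mitochondrial genes, 5 were lower after TAC in cSirt4-Tg mice and 5 higher with MitoQ in the same genotype. Of all tested genes, 8.77% were called lower and 9.89% higher in these comparisons. MitoQ can hardly be told apart from the name number here as well. The coactivator Ppargc1a ran from 2329 to 3370 in Tg-Sham, from 1029 to 2808 in Tg-TAC and from 2358 to 2852 in Tg-TAC-MQ. Its log2 difference was -0.81 after TAC (SE 0.19, adjusted p = 0.0049) and 0.75 with MitoQ (SE 0.19, adjusted p = 0.0067). Gabpa, the DNA-binding subunit of GABP, which recognises the ETS letters, gave -0.31 (adjusted p = 0.0151) and 0.38 (adjusted p = 0.0042). These 2 comparisons share the Tg-TAC libraries. In them the ribosomal protein genes had medians of -0.06 and -0.05.

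A pair of other gene families, the proteins of the cytosolic ribosome and those of the respiratory chain, was read beside the members. Of 85 cytosolic ribosomal protein genes, 9 were higher and 1 lower in Tg-TAC than in Con-TAC (median 0.22, against -0.18 for the members), and 44 were lower and 1 higher with MitoQ in cSirt4-Tg mice (median -0.30, against -0.05). Of 84 nuclear genes of the respiratory chain and ATP synthase, 1 was higher in Tg-TAC than in Con-TAC (median -0.25, against -0.18 for the members) and 2 were lower with MitoQ in cSirt4-Tg mice (median -0.02, against -0.05). Of all tested genes, 3.19% were called higher and 3.29% lower in Tg-TAC than in Con-TAC, and 9.89% and 7.44% with MitoQ in cSirt4-Tg mice. The differences between these families and the members were not tested.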

How the data were processed

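The deposited table gives 1 value per gene and library: a normalized count, a signal that the authors scaled per library. Per the submitters' processing notes, Trim Galore and STAR were used with build mm39; their versions, the counter and the normalizer are not stated in the sources used here. Per the labels' protocols, total RNA was made into stranded libraries. Values were whole reads times 1 step per library within 0.01 read, so reads were recovered for the count tests. limma 3.58.1 (trend and robust) was fitted to log2(value + 1) with 1 mean per group over 36 libraries (30 residual degrees of freedom), and Benjamini-Hochberg adjusted over 16275 genes reaching 10 in 6 or more libraries. The fit was tested on simulated data drawn for all groups from Con-Sham means and spreads. That test does not cover the unequal spread of the real groups or single outlying libraries. Alternatives were edgeR 4.0.16, DESeq2 1.42.0, other pseudocounts, filters, scalings and sample sets. Genes were named by rule: the 4 smallest adjusted p-values called in each direction, otherwise the 2 smallest p-values, the 3 highest and lowest means, and members with a role of their own; Mrpl49, Mrps10 and Mrpl54, the remaining calls, were named after their values were seen. The members and lists were chosen with earlier results of these data known. Transcript lengths come from GENCODE M21. Promoter motifs of 7 letters replaced longer NRF1 and YY1 forms tried first, which matched fewer genes.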

Additional observations from a re-analysis of the deposited data

Results flagged for a closer look

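In groups of 6, a library was noted when its gap to the nearest other value, as a share of the group's range, passed Dixon's 95% value of 0.625. Chance gives this in about 1 in 20 groups, and 8 of 90 groups of values met it.

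Of these, 2 are in Con-TAC 6: Mrpl39 at 801 normalized reads (the other 5 libraries 1394 to 1659) and Mrps9 at 1497 (2608 to 3217). Con-TAC-MQ 3 gave 3: Mrpl39 at 974 (1431 to 1621), Mrpl42 at 3572 (4777 to 5386) and Mrps9 at 1603 (2054 to 2253). Both libraries had low cardiomyocyte marker means, 16.70 in each, and the part of this in the values was not tested.

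Tg-TAC 6 stood out by its mitochondrial rRNA, mt-Rnr1 and mt-Rnr2 together at 668063 normalized reads (218124 to 350105 in the other 5). Mrpl50 in Tg-Sham 5 was high at 1738 (1490 to 1571), and Mrpl54 in Con-TAC-MQ 5 was low at 467 (556 to 589).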

How the results depend on the processing

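The number of members called moved with single libraries and with the covariate for the name number. With 1 library left out at a time it ran from 0 to 35 for genotype after TAC, 0 to 29 for MitoQ in Control mice, 1 to 9 for MitoQ and 1 to 7 for TAC in cSirt4-Tg mice, and 0 to 3 for TAC in Control mice; both genotype comparisons under sham and MitoQ and both interactions stayed at 0. The share of all tested genes called moved between fits as well, and is given below after "beside". The count for MitoQ in Control mice (1 as deposited) was 0 with no filter on low values (beside 1.26%), with equal totals outside the mitochondrial genome (beside 5.01%) and in the fit of the 2 groups alone (beside 0.16%). It was also 0 without 4 doubted libraries (Con-Sham 2, Tg-TAC 4, Con-TAC-MQ 5, Tg-TAC 6, beside 3.31%), and 5 by DESeq2 (6.49% of the members, beside 5.08%). The 4 doubted libraries are not the 4 that stood apart by their markers, since Con-TAC 6 and Con-TAC-MQ 3 were kept. MitoQ in cSirt4-Tg mice (6) gave 3 with no filter (3.9%, beside 9.04%) and 3 with TMM factors (3.9%, beside 17.6%). It gave 2 with equal totals outside the mitochondrial genome (1 higher and 1 lower, 2.6%, beside 20.2%) and 34, all higher, with the name number class (44.2%, beside 15.7%). With that class the signs of Mrpl52 (0.0088), Mrpl54 (0.102), Mrps10 (0.0119) and Mrps6 (0.0186) turned, and the members' median became 0.61, and 0.33 for MitoQ in Control mice. TAC in Control mice (0) gave 2 without the 4 doubted libraries (2.6%, beside 9.94%) and 2 with equal totals outside the mitochondrial genome (2.6%, beside 6.84%). That scaling moved the median of all genes by 0.11 and its calls to 931 higher and 183 lower, against 431 and 432. TAC in cSirt4-Tg mice (2) gave 1 with the name number class (1.3%, beside 12.6%) and 0 in the fit of the 2 groups alone (beside 4.37%). It gave 4 without the 4 doubted libraries (5.19%, beside 23.9%). Genotype after TAC (5) gave 35 with the name number class (45.5%, beside 20.4%), a fit in which Con-TAC 6 carries no weight. It gave 0 in the fit of the 2 groups alone (beside 0.00614%). Without the 4 doubted libraries it gave 4 (5.19%, beside 14.3%), by DESeq2 7 (9.09%, beside 10.8%) and with a minimum value of 50 it gave 6 (7.79%, beside 8.94%). With no filter it gave 4 (5.19%, beside 2.42%), and with equal totals outside the mitochondrial genome 6 (7.79%, beside 5.08%).

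Chosen after seeing the data, leaving out Con-TAC 6, Tg-TAC 4 and Tg-TAC 6 together gave 50 for MitoQ in Control mice (64.9% of the members, beside 16.3% of all tested genes called in that fit), 12 for MitoQ in cSirt4-Tg mice (15.6%, beside 25.6%), 8 for TAC in Control mice (10.4%, beside 11.1%), 7 for TAC in cSirt4-Tg mice (9.09%, beside 25.7%), 31 for genotype after TAC (40.3%, beside 22.6%) and 4 for the MitoQ interaction (5.19%, beside 4.45%). Using only libraries named 7 to 14, likewise, gave 4 for TAC in cSirt4-Tg mice (5.19%, beside 17.5%) and 41 for genotype after TAC (53.2%, beside 25.2%, median -0.36). The cause of these moves was not tested. With the replicate number as a block, counts were 1, 6, 0, 2 and 4 for MitoQ in Control and cSirt4-Tg mice, TAC in Control and cSirt4-Tg mice, and genotype after TAC. The shares of all tested genes called there were 3.03, 16.3, 4.54, 15.8 and 4.74%. The numbers did not pair the libraries: over 42 pairs of libraries with the same number the correlation of deviations ran from -0.48 to 0.31, and 9 correlated best with their own number. Single members near 100 reads, such as Mrps18c, are limited by depth.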
